A study of Mus musculus with 12 samples.

Results

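The cytoplasmic ribosomal protein genes were taken as the protein-coding genes whose symbol begins with Rps or Rpl followed by a digit, plus Rplp0, Rplp1, Rplp2 and Rpsa, without the ribosomal S6 kinases and without pseudogenes. Of the 57009 gene identifiers in the deposited table, 86 met this rule. Of these, 34 carry an Rps or Rpsa name (small subunit) and 52 an Rpl or Rplp name (large subunit). Rps19bp1 met the rule by its name, although it encodes a protein that binds the ribosomal protein Rps19 and is not a ribosomal subunit protein. The genes lie on 19 chromosomes, and Rpl10, Rpl36a, Rpl39 and Rps4x are on the X chromosome.

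Ribosomal proteins assemble with ribosomal RNA in the nucleolus into the small subunit, which reads the mRNA, and the large subunit, which joins amino acids. Their mRNAs are among the most abundant in most cells and begin with a run of pyrimidines, the terminal oligopyrimidine (TOP) tract, through which the kinase complex mTORC1 controls their translation, so that protein output can change without a change in mRNA level. Dendritic cells sensing a pathogen or meeting a T cell are known to raise protein synthesis and mTORC1 activity, while the mRNA counts described here record abundance only.

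RNA was sequenced from sorted splenic dendritic cells (DCs) of C57BL/6 mice in 4 groups of 3 libraries, 12 in all. The donor mice of every group carried B16 melanoma cells that released Flt3 ligand, a cytokine that expands DCs, so all groups share that exposure. DCs were enriched from the spleen with beads that removed lymphocytes and macrophages, kept in culture for 3 h, and sorted by CD11b and CD11c. The AlloTem DCs shared their culture with memory T cells of BALB/c origin that were specific for the alloantigen, and the SynTem DCs with syngeneic effector memory T cells from B6 mice. The LPS DCs received lipopolysaccharide, a bacterial cell wall component that activates Toll-like receptor signalling, and the DC only cells were cultured alone. AlloTem and SynTem differ in the strain of the T cells as well as in their specificity. The deposited batch numbers, 1 to 3, match the replicate numbers of all 12 libraries, so each batch holds 1 library of each group. What a batch was is not stated, nor whether replicates came from separate mice or cultures, and p-values therefore measure the spread between libraries only.

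Libraries held 13903574 to 21861156 counts, of which 652094 to 1151293 fell on the ribosomal protein genes. All 12 DC markers were detected in all 12 libraries: Cd74, the class II invariant chain, ranged from 4820 to 9771 CPM (the usual depth-scaled count, here with TMM-adjusted library sizes), and Itgax, the CD11c gene, from 261 to 470.2 CPM. The summed level of 20 T cell markers was 338, 209 and 175 CPM in AlloTem libraries 1, 2 and 3, and 334, 776 and 623 CPM in SynTem libraries. It was 205, 133 and 85.1 CPM in LPS and 108, 123 and 80.3 CPM in DC only libraries. Summed Y-linked transcripts reached 131 to 219.6 CPM in the 4 libraries of batch 3 and 175 CPM in SynTem library 2, against 0 to 10.3 CPM in the other libraries. Xist, transcribed from the inactive X chromosome, was at 138 to 455 CPM in the 4 libraries of batch 3 and at 312 CPM in SynTem library 2. It was at 610 to 1188 CPM in the other 7 libraries. SynTem library 2 thus stood with batch 3 in these transcripts and not with its own batch.

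The start of the transcript carries the TOP tract, so the 15 bases before and the 15 bases from the annotated start are shown for genes with a tract at that base and for genes without one there. The windows are from RefSeq (GRCm38.p6), on the gene's own strand, and capitals mark a tract, defined as a C at the start base followed by at least 4 pyrimidines.
Rps6 (chr4:86857353-86857382, minus strand): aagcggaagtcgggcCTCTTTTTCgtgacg
Rps27 (chr3:90213634-90213663, minus strand): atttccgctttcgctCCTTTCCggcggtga
Rpl13a (chr7:45128731-45128760, minus strand): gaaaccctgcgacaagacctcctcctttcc
Rplp0 (chr5:115559452-115559481, plus strand): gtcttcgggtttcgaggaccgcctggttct
Rpl22l1 (chr3:28805493-28805522, plus strand): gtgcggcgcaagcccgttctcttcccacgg

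Of the 86 genes, 66 matched an entry of the RefSeq start table. A tract stood at the annotated start base in 14 of the 66 (21.2%), against 813 of 27025 genes of the table (3.01%). Within 10 bases of the start, a C followed by 4 pyrimidines on the sense strand was found in 40 of the 66 (60.6%), against 34.4% of all genes. Only the sense strand was searched, and a missing match says only that these letters are not at the annotated base.

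Rpl36a on the X chromosome and Rpl36al on chromosome 12 encode near-identical large subunit proteins, and the ratio of their counts, given with the batches below, separated batch 3 from batch 1. The first 150 bases of each coding sequence, from GENCODE M21, are shown from the start codon, with capitals at the 23 bases that differ in this stretch.
Rpl36a: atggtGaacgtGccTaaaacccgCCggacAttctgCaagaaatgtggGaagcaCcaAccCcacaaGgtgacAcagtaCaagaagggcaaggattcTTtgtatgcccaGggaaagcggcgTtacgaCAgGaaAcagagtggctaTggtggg
Rpl36al: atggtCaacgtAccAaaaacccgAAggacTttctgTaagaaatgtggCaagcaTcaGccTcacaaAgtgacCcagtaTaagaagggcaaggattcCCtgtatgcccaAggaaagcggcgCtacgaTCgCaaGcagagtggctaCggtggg
Over the whole 321-base coding sequence, 39 bases differed (87.9% identical). No 50-base window, the length of a read, was shared by the coding sequences of the pair, out of 272 windows. Over the main transcripts, however, 85.5% of the windows of Rpl36a and 63.3% of those of Rpl36al also occur in transcripts of other genes. Both counts, and so their ratio, may therefore include reads of other genes.

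Copies of these genes limit what a count can say. Of the 86 genes, 82 had at least 1 window of 50 bases of their main transcript that also occurs in a transcript of another gene, and in 54 genes more than 50% of windows did (median 58.7%). How reads that match several places were counted is not given in the sources used here. Annotated ribosomal pseudogenes, 300 in the table, held 0.451% to 0.549% as many counts as the ribosomal protein genes in each library, and 137 of them had 0 counts throughout.

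The ribosomal protein genes took 4.61% to 5.91% of all counts in a library. The share was 4.87%, 4.83% and 5.74% in AlloTem libraries 1, 2 and 3, 4.69%, 5.68% and 5.68% in SynTem, 5.35%, 4.95% and 5.66% in LPS, and 4.76%, 4.61% and 5.91% in DC only. The 4 groups overlapped in full, with means of 5.15% ± 0.512 in AlloTem, 5.35% ± 0.569 in SynTem, 5.32% ± 0.356 in LPS and 5.09% ± 0.708 in DC only (SD, n = 3 each). The 4 libraries of batch 3 lay at 5.66% to 5.91%, whereas batch 1 ranged from 4.69% to 5.35% and batch 2 from 4.61% to 5.68%. SynTem library 2 was the library of batch 2 that reached the range of batch 3.

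After TMM scaling the libraries lay closer together. The median deviation of the 83 tested genes from their own mean was -0.02, 0.01 and 0.06 (log2) in AlloTem libraries 1, 2 and 3, and -0.11, -0.02 and 0.06 in SynTem. It was 0.12, -0.01 and 0.08 in LPS and -0.10, -0.16 and 0.11 in DC only. The lowest medians were in DC only libraries 2 and 1 and SynTem library 1, and the highest in LPS library 1 and DC only library 3. The same 3 low libraries also had the lowest summed erythroid markers, 7.77, 7.76 and 14.6 CPM, against 27.2 to 76.5 CPM in the other 9. Other marker lists did not single out these 3. Neutrophil sums were 27.9 and 23.8 CPM in DC only libraries 2 and 1, but 91.6 CPM in SynTem library 1. Plasmacytoid DC sums were highest in DC only library 1 (629 CPM) and lowest in SynTem library 1 (323 CPM). The part of erythroid RNA in the ribosomal values was not tested.

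**Figure D1:**
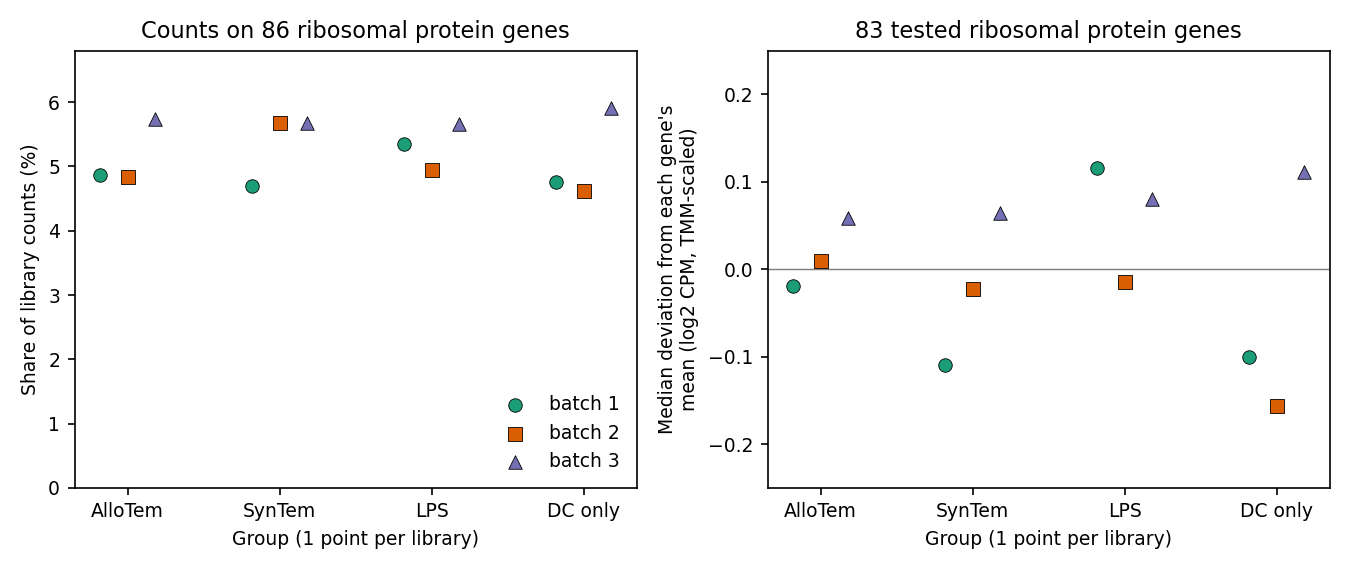
Left, share of library counts (%) on the 86 ribosomal protein genes in each of 12 libraries; right, median deviation of the 83 tested genes from their own mean over libraries (log2 TMM-scaled CPM), with groups on the x axis and batch as marker. Batch 3 lies at 5.66% to 5.91% in every group, and on the scaled values LPS library 1 is highest at 0.12.

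Levels among the genes spanned a wide range. Of the 86 genes, 83 passed the filter on low counts, 79 averaged at least 100 CPM and 12 at least 1000 CPM. The 3 that did not pass are copies expressed mainly in other tissues: Rpl10l, known from the testis, had 0 counts in all libraries, Rpl39l, also known from the testis, had 24 counts in all, and Rpl3l, the copy of heart and skeletal muscle, had 22. Rpl39l reached at most 0.566 CPM and Rpl3l at most 0.343 CPM. Their parent genes averaged 1147 CPM (Rpl10), 215 CPM (Rpl39) and 1225 CPM (Rpl3).

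Per kilobase of annotated exon, Rplp1, Rps3a1 and Rplp0 had the highest levels. Rplp1, an acidic protein of the large subunit stalk that recruits elongation factors, averaged 1540.5 CPM per kb, Rps3a1 of the small subunit 1215, and Rplp0, the base of the stalk, 1145. Rplp2, the partner of Rplp1 in the stalk, was at 232 CPM per kb and rank 54 of 86. The annotated exons of Rplp2 cover 2072 bases, whereas its main transcript has 421. Per kb of main transcript, Rplp2 was at 1141 CPM, Rplp1 at 1540.5 and Rps12 at 1727, so the order depends on the length used. Per kb of exon, the lowest of the 83 were Rps19bp1 at 12.9 CPM, Rpl22l1 at 19.8 and Rps27rt, a retrogene copy of Rps27, at 21.9. Rpsa, the small subunit protein also known as the laminin receptor, had the highest level not adjusted for length, with a mean of 2018 CPM.

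Of the genes of known role, Rps6 and Rplp0 varied little between groups. Rplp2 was less even, with means of 525 CPM in AlloTem, 455 in SynTem, 490 in LPS and 451 in DC only, and was not called. Rps6, the small subunit protein phosphorylated downstream of mTORC1, had 1137, 1170.1 and 1283 CPM in AlloTem libraries, 1198, 1247 and 1231 in SynTem, 1256, 1186 and 1296 in LPS, and 1107, 1189 and 1322 in DC only. The 4 groups of Rps6 overlapped, and DC only held both its lowest and its highest value. Rplp0, often used as a reference gene, averaged 1843 ± 125 CPM in AlloTem, 1953 ± 137 in SynTem, 1917 ± 96.6 in LPS and 1887 ± 162 in DC only (SD, n = 3 each).
Rpl5 and Rpl11, which bind 5S ribosomal RNA and, when free, the p53 regulator Mdm2, ranged from 751 to 928 CPM and from 379.8 to 508 CPM over all libraries. Rpl13a, known in human monocytes for its release from the ribosome after interferon gamma, ranged from 926 to 1135 CPM, Rps19, mutated in Diamond-Blackfan anaemia, from 420.0 to 534 CPM, and Rps27a, made as a fusion with ubiquitin, from 482 to 596 CPM. In these 5 genes the lowest value fell in DC only library 2 or 1 or, for Rps27a, in SynTem library 1.

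The spread over the 12 libraries was small. The SD of log2 CPM had a median of 0.110 over the 83 genes (0.0573 to 0.264), against 0.283 over all 14413 tested genes and 0.166 over the 2461 genes that averaged at least 100 CPM. Of the 83 genes, 70 lay below the first quartile of all genes, 0.165. The steadiest were Rpl19 (717 to 831 CPM), Rpl22 (213 to 251 CPM) and Rpl24 (292 to 352 CPM), all of the large subunit. Among genes averaging at least 10 CPM, the most variable were Rps29 (139 to 234 CPM), Rpl22l1 (30.6 to 49.2 CPM) and Rps28 (118 to 191 CPM), with SDs of 0.235, 0.214 and 0.212. Between pairs of the 83 genes, the correlation of their log2 levels over the 12 libraries had a median of 0.59 over 3403 pairs, a description of values that share library and scaling.

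**Figure D2:**
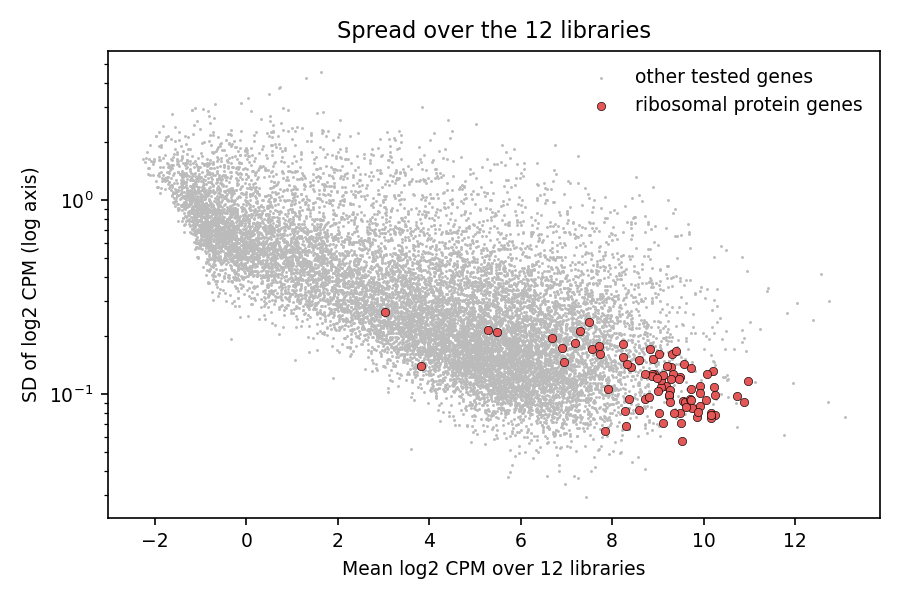
SD of log2 CPM over 12 libraries (log axis) against mean log2 CPM, with 1 point per tested gene and the 83 ribosomal protein genes in red. The red points sit at the high-abundance end, with SDs from 0.0573 to 0.264 and a median of 0.110.

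None of the 5 comparisons between groups called a ribosomal protein gene. A gene was called at a Benjamini-Hochberg adjusted p under 0.05 in edgeR's quasi-likelihood test, adjusted over all 14413 genes. In each of the 5, the 95% confidence interval of every one of the 83 genes lay within 1 log2 unit of 0, whereas this held for 63.6% to 66.3% of all genes, a set that includes genes with far fewer counts. The fitted difference exceeded 1.5-fold in 0 of the 83 genes, against 12.1% to 18.05% of all genes. The AlloTem libraries enter 3 of the comparisons and DC only libraries enter 3, so these comparisons are not independent of each other.

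AlloTem against SynTem compares DCs cultured with alloantigen-specific and with syngeneic T cells, which also differ in strain. Here 0 of 83 genes were called, with 0.167% of all tested genes called, and 1 gene had an unadjusted p under 0.05 in edgeR. DESeq2 and limma voom also called 0. The median difference was 0.04 (log2; -0.01 over all genes), 52 of the 83 being positive. On library totals without scaling factors it was -0.03 with 29 positive, against -0.08 over all genes. With TMM scaling the median was -0.001 with 41 positive without SynTem 1, 0.02 without AlloTem 3 and 0.08 without SynTem 3. Within batches 1, 2 and 3 it was 0.07, 0.01 and 0.00. The lowest p belonged to Rpl22l1, the less abundant paralogue of Rpl22. Rpl22l1 had 41.7, 49.2 and 42.2 CPM in AlloTem libraries 1, 2 and 3, against 30.6, 31.2 and 40.1 CPM in SynTem libraries, and the groups did not overlap. Its log2 difference was 0.39 ± 0.13 (SE; 95% confidence interval 0.09 to 0.68, edgeR adjusted p = 0.358), with 0.44, 0.65 and 0.07 within batches 1, 2 and 3. Rps21, a small subunit protein, had 177, 176 and 172 CPM in AlloTem libraries, against 219.7, 183 and 217 CPM in SynTem libraries. Its difference was -0.24 ± 0.13 (edgeR adjusted p = 0.592), again with no overlap. In all, the AlloTem libraries lay above all SynTem libraries in 9 genes (background 7.09% of all genes) and below them in Rps21 and Rps27rt (background 5.94%). Beside this, the summed T cell markers were 175 to 338 CPM in AlloTem and 334 to 776 CPM in SynTem libraries. By the fit all 20 markers were lower in AlloTem, with a median log2 difference of -1.60 and 0 called. At an unadjusted p under 0.05 edgeR had 12 of the 20, against 1381 of all 14413 genes. As in any bulk sample, fewer cells of a type and less RNA per cell cannot be told apart.

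AlloTem against DC only called 0 of 83 genes, with 1.76% of all genes called, and 1 gene had an unadjusted p under 0.05 (DESeq2 and voom called 0). The median difference was 0.05 (0.00 over all genes), with 66 of 83 positive. It was 0.0016 with 43 positive without DC only 2 and 0.02 without DC only 1. Leaving out DC only 3 gave 0.13 with 78 positive. In that fit 15 of the 83 and 1898 of all 14896 genes had an unadjusted p under 0.05. Within batches 1, 2 and 3 the median was 0.06, 0.16 and -0.05, so it did not hold its direction in batch 3. Rpl36, a small basic protein of the large subunit, had the lowest p. It stood at 227, 229 and 233 CPM in AlloTem libraries, against 171, 171 and 214 CPM in DC only libraries. The groups did not overlap, and the log2 difference was 0.31 ± 0.12 (95% confidence interval 0.03 to 0.58, edgeR adjusted p = 0.328). Rpl35a, also of the large subunit, had the lowest p on the negative side, at -0.05 ± 0.08 (edgeR adjusted p = 0.877). AlloTem libraries lay above all DC only libraries in Rpl22l1, Rpl27, Rpl36 and Rplp2 (9.35% of all genes) and below in 0 (7.82%). All 20 T cell markers were higher in AlloTem by the fit, 7 of them called. Erythroid marker sums were 49.5, 50.2 and 36.6 CPM in AlloTem libraries, against 7.76, 7.77 and 45.9 CPM in DC only libraries. The part of either in the ribosomal values was not tested.

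SynTem against DC only called 0 of 83 genes (0.0902% of all genes called), with 0 at an unadjusted p under 0.05 and 0 called by DESeq2 or voom. The median was 0.03 (0.00 over all genes), and -0.02 without DC only 2 to 0.11 without DC only 3. It was also below 0 without DC only 1 or SynTem 3. Within batches 1, 2 and 3 it was -0.001, 0.14 and -0.04. Rpl36 again had the lowest p, at 203, 193 and 257 CPM in SynTem libraries, against 171, 171 and 214 CPM in DC only libraries, with an overlap. Its log2 difference was 0.23 ± 0.12 (95% confidence interval -0.05 to 0.50, edgeR adjusted p = 0.672). On the negative side it was Rpl36al, at -0.14 ± 0.11 (edgeR adjusted p = 0.803). No gene separated the groups in either direction, against 14.3% of all genes. T cell marker sums were higher in SynTem libraries, and 7 of the 20 markers were called.

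LPS against DC only had the most uniform direction. All 83 fitted differences were positive, from 0.02 to 0.29, with a median of 0.11 (1.08-fold; 0.00 over all genes, of which 49.99% were positive), and 82 were positive on library totals. None of the 83 was called, as was the case for all 14413 genes (0% called). At an unadjusted p under 0.05 edgeR had 1 of the 83 and 531 of all genes, and DESeq2 and voom called 0 of the 83. The genes share libraries and scaling, so the common sign is not 83 separate observations. Within batches 1, 2 and 3 the median was 0.20, 0.15 and -0.03, with 83, 72 and 23 genes positive. The shift was thus present in batches 1 and 2, where DC only libraries had the low values described above, and not in batch 3. The gene below 0.05 was Rpl9, a large subunit protein, at 596, 589 and 576 CPM in LPS libraries, against 502, 460.3 and 574 CPM in DC only libraries. Its difference was 0.20 ± 0.09 (95% confidence interval 0.002 to 0.39, edgeR adjusted p = 0.999), with 0.25, 0.36 and 0.00 within batches 1, 2 and 3. LPS libraries lay above all DC only libraries in Rpl9 and Rpl22 only (5.36% of all genes). Erythroid marker sums were 76.5, 44.2 and 55.7 CPM in LPS libraries, against 7.76, 7.77 and 45.9 CPM in DC only libraries, and their part in the shift was not tested. Without DC only library 3, the median was 0.19, and 23 of the 83 and 755 of all genes had an unadjusted p under 0.05. Without DC only library 2, the median was 0.05 with 76 positive.

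AlloTem against LPS called 0 of 83 genes (0.451% of all genes called). None had an unadjusted p under 0.05 in edgeR, and DESeq2 and voom called 0. The median was -0.05 (-0.005 over all genes), with 22 of 83 positive, and -0.14, 0.01 and -0.02 within batches 1, 2 and 3. It ranged from -0.08 without LPS 2 to -0.03 without LPS 1, LPS 3 or AlloTem 1. Rpl39, a very small protein of the exit tunnel encoded on the X chromosome, had 194, 192 and 214 CPM in AlloTem libraries, against 243, 215 and 253 CPM in LPS libraries. Its difference was -0.25 ± 0.12 (95% confidence interval -0.52 to 0.03, edgeR adjusted p = 0.873). On the positive side the lowest p was that of Rpl36, at 0.14 ± 0.12 (edgeR adjusted p = 1.00). AlloTem libraries lay below all LPS libraries in 6 genes (4.54% of all genes) and above them in Rpl36 alone (5.52%).

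**Figure D3:**
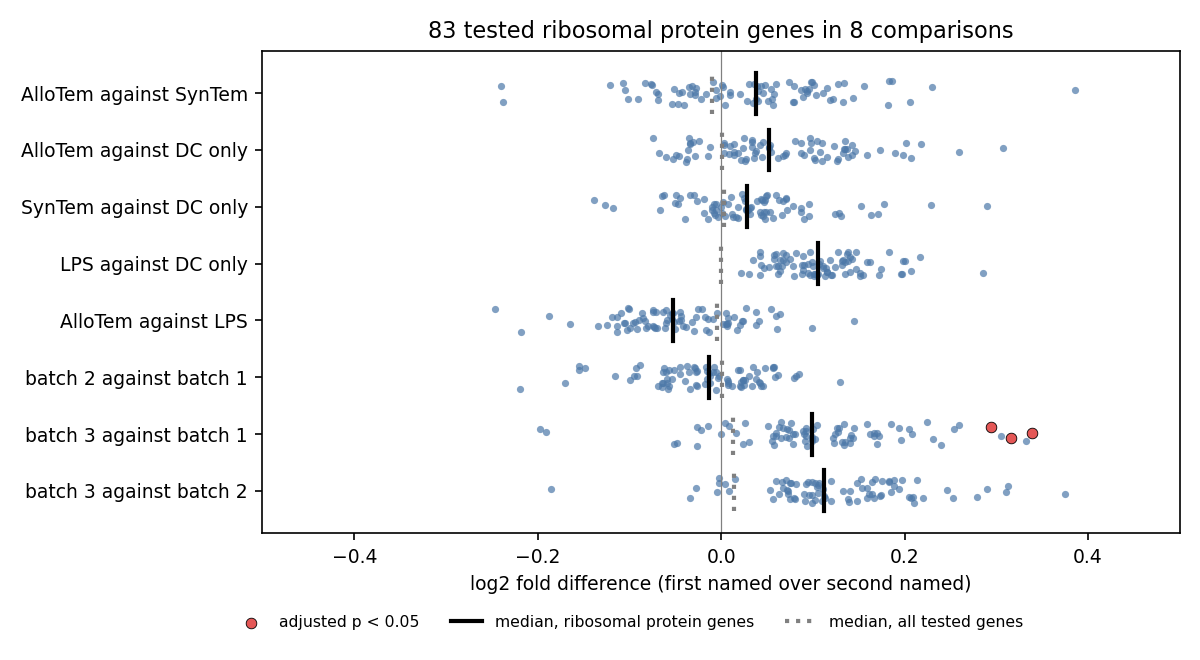
Fitted log2 difference (x axis) of each of the 83 tested genes in 8 comparisons (y axis), with black bars at their median, dotted bars at the median of all tested genes and red points at adjusted p under 0.05. Every point lies within 0.39 of 0, the LPS against DC only points are all above 0, and the 3 called genes are in batch 3 against batch 1.

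The only ribosomal protein genes called by edgeR with all 12 libraries were called between batches. Batch 3 against batch 1, fitted with group as a covariate, called 3 ribosomal protein genes, all higher in batch 3, and Rpl36a and Rps20 among them are described here. This is 3 of 83, against 9.7% of all genes called in either direction and 4.48% called higher, so calls were no more frequent than among all genes. At an unadjusted p under 0.05 there were 20 of the 83 and 4460 of the 14413. DESeq2 called 7 of the 83 (17.9% of all genes) and voom 6 (13.9% of all genes). The median was 0.10 (0.01 over all genes), with 75 of 83 positive. Within groups it was 0.07 in AlloTem, 0.16 in SynTem, -0.04 in LPS and 0.21 in DC only. It was 0.06 without DC only 3 and 0.15 without LPS 1. On library totals without scaling factors the median was 0.21, against 0.13 over all genes.

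Rpl36a stood at 169.7, 184, 157 and 165 CPM in the AlloTem, SynTem, LPS and DC only libraries of batch 3, against 134, 133, 143 and 125 CPM in those of batch 1. The log2 difference was 0.34 ± 0.07 (95% confidence interval 0.18 to 0.49, edgeR adjusted p = 0.0299), positive in 4 of 4 groups. Rps20, a protein of the small subunit, had 575, 566, 590.2 and 594 CPM in batch 3, against 475, 438, 533 and 455 CPM in batch 1. Its difference was 0.29 ± 0.08 (edgeR adjusted p = 0.0438).
In both genes the batches did not overlap, and the difference was lowest in LPS, at 0.14 and 0.15. In all, batch 3 lay above batch 1 without overlap in 12 of 83 genes, against 11.4% of all genes. The calls were lost when single libraries were left out: without AlloTem 1, AlloTem 3, SynTem 1, LPS 1, LPS 2, LPS 3 or DC only 3, in turn, edgeR called none of the 83, and also 0 of all genes. Rps20 was also not called without AlloTem 2, SynTem 3 or DC only 1. Without SynTem 2, which stood with batch 3 in Y-linked transcripts, it called 11 (19.6% of all genes). The Y-linked and Xist levels that separate batch 3 are given above, 3 of 12 DC markers were called lower in batch 3, and the part of these differences between batches in the ribosomal values was not tested.

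Batch 3 against batch 2 called 0 of 83 genes (0.00694% of all genes called). At an unadjusted p under 0.05 edgeR had 18 of the 83 and 2364 of all 14413 genes. DESeq2 called 2 (2.66% of all genes) and voom 0. The median was 0.11 (0.01 over all genes), with 77 of 83 positive and within-group medians of 0.05 in AlloTem, 0.09 in SynTem, 0.10 in LPS and 0.28 in DC only. Batch 3 lay above batch 2 without overlap in 18 of 83 genes, against 3.37% of all genes. Rpl36a had the lowest p, at a difference of 0.31 ± 0.07 (edgeR adjusted p = 0.237). It was at 133, 153, 134 and 126 CPM in the AlloTem, SynTem, LPS and DC only libraries of batch 2, all below the 4 values of batch 3. On the negative side Rps27l had the lowest p, at -0.19 ± 0.10 (edgeR adjusted p = 0.376). Without SynTem 2, edgeR called 9 genes, 8 of them higher (13.2% of all genes called).

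Batch 2 against batch 1 called 0 of 83 genes (0.00694% of all genes called), with 1 at an unadjusted p under 0.05 and 0 called by DESeq2 or voom. The median was -0.01 (0.00 over all genes) with 33 of 83 positive, but 0.02 without LPS 1 or DC only 2. It was 0.03 with upper quartile scaling and 0.01 on library totals, against 0.05 and 0.03 over all genes. That 1 gene was Rpl36al, at -0.17 ± 0.07 (95% confidence interval -0.34 to -0.005, edgeR adjusted p = 0.296). On the positive side Rps2, a small subunit protein near the mRNA entry site, had the lowest p, at 0.13 ± 0.08 (edgeR adjusted p = 0.462). No gene separated the batches, against 4.95% of all genes.

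Rpl36a and Rpl36al, the pair shown above, moved apart between batches. The count of Rpl36al divided by that of Rpl36a, which needs no scaling between libraries, was 0.714, 0.613, 0.732 and 0.740 in the AlloTem, SynTem, LPS and DC only libraries of batch 3. It was 1.02, 0.906, 1.04 and 1.09 in batch 1 and 1.05, 0.689, 0.920 and 0.916 in batch 2. The ratio was 0.613 to 0.740 in batch 3 and SynTem library 2, the 5 libraries with Y-linked transcripts at 131 CPM or more, against 0.906 to 1.09 in the other 7. By group the ratio averaged 0.928 ± 0.186 in AlloTem, 0.736 ± 0.152 in SynTem, 0.897 ± 0.155 in LPS and 0.915 ± 0.175 in DC only (SD, n = 3 each), and the groups overlapped. Rpl36al itself was at -0.20 ± 0.07 in batch 3 against batch 1 (edgeR adjusted p = 0.105). Of the other genes on the X chromosome, Rpl10 differed by 0.02 ± 0.07, Rpl39 by 0.21 ± 0.08 and Rps4x by 0.14 ± 0.08 in the same comparison, none of them called (edgeR adjusted p = 0.844, 0.104 and 0.253). Whether the sex of the donor mice bears on Rpl36a was not tested.

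**Figure D4:**
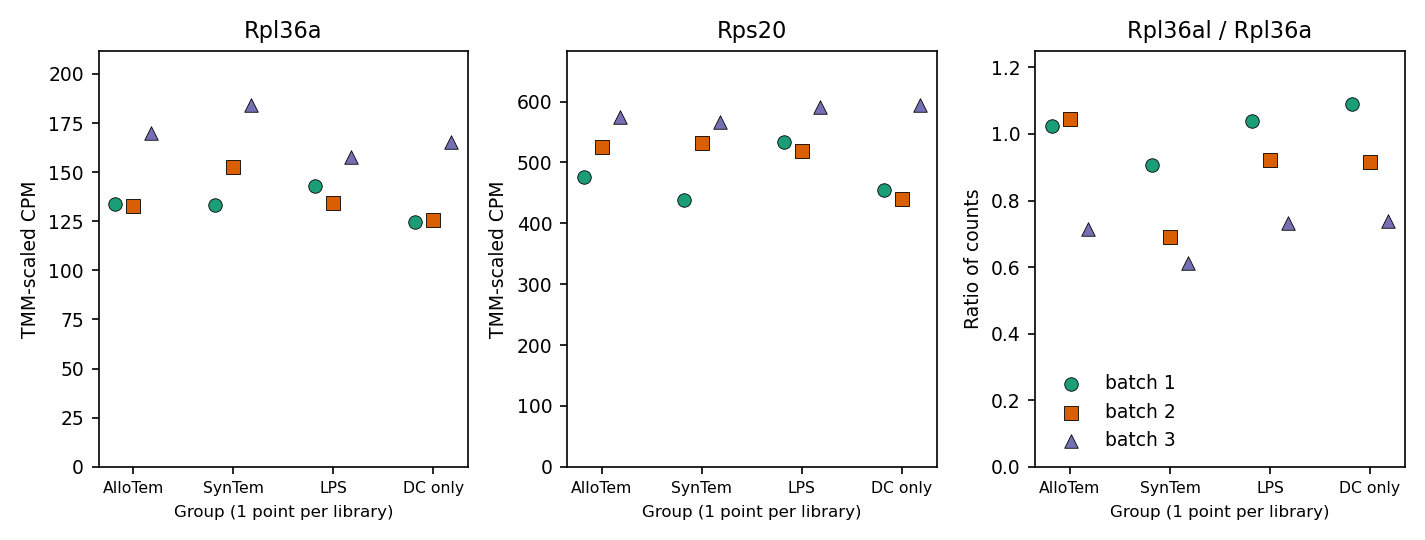
TMM-scaled CPM of Rpl36a and Rps20, and the ratio of Rpl36al to Rpl36a counts (y axes), in 12 libraries by group (x axis) and batch (marker). In every group batch 3 is highest for both genes, and the ratio lies at 0.613 to 0.740 in batch 3 and at 0.689 in SynTem library 2.

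In the ratio of Rpl7l1 to Rpl7, batch 3 (0.111 to 0.123) lay above batch 2 (0.0907 to 0.107), while batch 1 (0.0953 to 0.124) overlapped both. The ratios of Rpl22l1 to Rpl22 and of Rps27l and Rps27rt to Rps27 overlapped between all batches. Rpl22l1 had 17.3% as many counts as Rpl22 over all libraries. The ratio of Rpl22l1 to Rpl22 was 0.195, 0.215 and 0.186 in AlloTem libraries, 0.140, 0.134 and 0.175 in SynTem, 0.192, 0.172 and 0.161 in LPS, and 0.166, 0.142 and 0.182 in DC only. AlloTem lay above SynTem and above DC only without overlap in this ratio, a difference that was not tested on its own. Of the 50-base windows of Rpl22l1, 65.6% also occur in transcripts of other genes, so its counts may include their reads. Rpl22 itself was steady, and varied from 213 to 251 CPM. Rps27l, an inducible target of p53, had 11.6% as many counts as Rps27. It averaged 45.2 ± 5.86 CPM in AlloTem, 39.8 ± 4.53 in SynTem, 52.6 ± 7.07 in LPS and 43.1 ± 2.80 in DC only (SD, n = 3 each). Its fitted difference in LPS against DC only was 0.29 ± 0.13, positive within all 3 batches and not called (edgeR adjusted p = 0.999). Rpl7l1, which takes part in ribosome assembly, had 11.0% as many counts as Rpl7 and ranged from 85.8 to 125 CPM. Rps27rt had 2.09% as many counts as Rps27 and shares 91.1% of its 50-base windows with other transcripts, so its counts may in part be reads of Rps27.

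Medians of the subunits lay close together. In LPS against DC only the medians were 0.12 over 33 small subunit genes and 0.10 over 49 large subunit genes, and in batch 3 against batch 1 they were 0.12 and 0.09, these sets leaving out Rps19bp1 and the 3 genes not tested. By length of the coding sequence, the 28 genes under 400 bases had a median of 0.13 in LPS against DC only and the 55 longer ones 0.10 (Spearman's rho between length and difference -0.48 over the 83 genes, as a description). This rho was the most negative of all comparisons. It was -0.40 in AlloTem against DC only, -0.02 in batch 3 against batch 1 and positive only in batch 2 against batch 1, at 0.32.

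Other genes of ribosome production were compared as lists, and no gene of the 5 lists described here was called in a comparison of groups. The 78 mitochondrial ribosomal protein genes, which build the separate ribosome of mitochondria, had a median of 0.09 in AlloTem against SynTem, -0.13 in SynTem against DC only (14 of 78 positive) and 0.00 in LPS against DC only. In batch 3 against batch 1 their median was -0.003 and 2 were called higher, Mrpl49 at 0.52 ± 0.12 and Mrpl42 at 0.33 ± 0.09 (edgeR adjusted p = 0.0312 and 0.0485). In AlloTem against SynTem, 1381 of all 14413 tested genes and 4 of the 30 ribosome biogenesis genes had an unadjusted p under 0.05. The 30 had a median of 0.13 there, 25 being positive. In batch 3 against batch 1, 4 of them rose: Polr1a, the largest subunit of RNA polymerase I, Wdr12 and Tsr1, which are ribosome assembly factors, and Dkc1, which modifies ribosomal RNA. Their differences were 0.55 ± 0.10, 0.57 ± 0.13, 0.37 ± 0.09 and 0.39 ± 0.10 (edgeR adjusted p = 0.0299, 0.0347, 0.0353 and 0.0415). These counts stand beside 9.7% of all genes called in this comparison and 4.48% called higher, and these calls, with those of mTORC1 genes below, were lost with any of the 7 libraries named above left out.
The 19 other TOP mRNAs and ribosome components, such as Rack1 and Fau, had a median of -0.02 in AlloTem against SynTem and 0.06 in LPS against DC only (18 of 19 positive), with none called in the 8 comparisons. Rack1, a scaffold protein on the small subunit, differed by -0.02 ± 0.10 in AlloTem against SynTem and by 0.06 ± 0.10 in LPS against DC only (edgeR adjusted p = 0.968 and 0.999). Of 18 genes of mTORC1 and translation control, Mlst8, a subunit of the complex, and Rps6kb1, the kinase that phosphorylates Rps6, were higher in batch 3 than in batch 1, at 0.42 ± 0.10 and 0.32 ± 0.08 (edgeR adjusted p = 0.0388 and 0.0415). Rheb, the GTPase that activates mTORC1, fell by 0.29 ± 0.07 in that comparison (edgeR adjusted p = 0.0349), and 0 of the 18 were called between groups. The 8 snoRNA host genes, whose introns hold guides for ribosomal RNA modification, had medians of 0.15 in AlloTem against SynTem and 0.18 in LPS against DC only, with none called. Among 44 tested ribosomal pseudogenes, 1 was called, in AlloTem against DC only: Rps2-ps10, a copy of Rps2, averaged 6.94 CPM and rose by 1.52 ± 0.29 (edgeR adjusted p = 0.0267), while Rps2 itself was not called.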

How the data were processed

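RNA-seq libraries (TruSeq kit, single-end reads of 50 bases, per the labels' protocols) were made from 12 samples in 4 groups of 3. The authors deposited raw counts per Ensembl gene identifier, whole numbers with no normalization, and a batch number per library, per the file headers. Per the submitters' processing notes, reads were placed on mm10. How reads were aligned and counted, and against which annotation, is not stated in the sources used here. Symbols came from GENCODE M21 for 52080 of 57009 identifiers, the rest holding 0.754% of counts.

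Genes passing filterByExpr (minimum count 10, minimum total 15; 14413 genes) were TMM-scaled and fitted over all 12 libraries by edgeR's robust quasi-likelihood test (edgeR 4.0.16, R 4.3.3), each group having its own mean. Batch comparisons added batch with group as covariate. A gene was called at a Benjamini-Hochberg adjusted p under 0.05, taken over all genes of a comparison. Standard errors are the log2 difference over the square root of F, and levels within a batch were compared after adding 0.5 CPM. DESeq2 1.42.0 and limma voom 3.58.1 were run beside it, as were other scalings, no filter, the batch number as a block, and fits leaving libraries out. The scripts were tested on simulated counts.

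The ribosomal protein genes, the lists and the rules were chosen with earlier results of these data known. Genes were named by rule: the called genes of a comparison, or the lowest p in each direction; genes of known role; paralogue pairs; and the extremes of level and spread. Genes named because they separated groups, and Rps2-ps10, were picked after their values were seen. Replicate numbers pair the libraries because they equal the deposited batch numbers. As a check, deviations from group means correlated at a median of 0.25 over 18 same-number pairs (-0.25 to 0.63, 12 above 0.1) and -0.20 over other pairs. Deviations within a group cancel out by construction, so the negative median of other pairs is not a separate check. Of 12 libraries 10 correlated best with their own number, and SynTem 2 and DC only 2 did not. Protein sequences were not used here, and 1 gene called between batches is not reported here.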

Additional observations from a re-analysis of the deposited data

Results flagged for a closer look

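Within each batch, 1 library per group gives 4 values, and for 11 of 111 sets of 4 (36 genes and the share of counts, in 3 batches) 1 library stood apart by Dixon's 95% criterion, where chance gives about 1 in 20, or 5.55. The genes share libraries and scaling, so the sets are not independent and the rate of 1 in 20 is only a rough guide. Group and library cannot be told apart in these sets.

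In batch 1, LPS library 1 stood above the 3 other libraries in 6 genes. It had 1281.39 CPM of Rpl10 (others 1101 to 1120.2), 830.8 CPM of Rpl19 (731 to 746), 54.729 CPM of Rps27l (43.9 to 45.4) and 1287.42 CPM of Rps3a1 (1061 to 1094). It also had 1288.68 CPM of Rps4x (1106 to 1116) and 2107.91 CPM of Rpsa (1828 to 1864). In batch 3, LPS library 3 was high for Rpl22 at 250.816 CPM (227 to 229) and low for Rpl11 at 483.484 CPM (496 to 498) and Rplp2 at 476.371 CPM (515 to 521). In batch 2, LPS library 2 was high for Rps19bp1 at 16.9181 CPM (12.9 to 13.5), and DC only library 2 was low for Rps20 at 440.409 CPM (519 to 531).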

How the results depend on the processing

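In each of the 5 comparisons of groups, 0 ribosomal protein genes were called under every alternative run, the replicate block (0 called in each) and each omitted library included. In batch 3 against batch 1, where 3 were called, the count was 8 with upper quartile scaling (1535 genes called in all), 12 with library totals only (1704), 7 with DESeq2, 6 with voom, and 10 without DC only 2 and SynTem 2 (3037). It ranged from 0 to 11 with 1 library left out, and was 3 with RLE factors and 2 with no filter (Rps20 lost, edgeR adjusted p = 0.0581). In batch 3 against batch 2 the count was 2 with DESeq2 (383 genes called in all) and 0 to 9 with 1 library left out. Without DC only 2 and SynTem 2 it was 2, 1 higher and 1 lower, with 1494 of 14752 genes called. In batch 2 against batch 1 it was 0 to 1, the 1 being without DC only 1 (664 genes called in all). Rpl35a in AlloTem against DC only reversed to 0.0017 without DC only 2 and SynTem 2, and ranged from -0.13 to 0.0016 with 1 library left out, the high end being without DC only 2. In batch 3 against batch 1 the median of all genes was 0.13 on library totals, against 0.01 with TMM. In LPS against DC only the median was 0.05 to 0.19 with 1 library left out. The cause of these changes was not tested. The 3 libraries per group leave a standard error of about 0.10 for the median ribosomal protein gene, so differences of that size could not be called. The median share of counts over the 12 libraries was 5.36% of nuclear protein-coding counts and 5.17% with pseudogenes added, against 5.15% as reported per library.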
